A study of Homo sapiens with 10 samples.

Results

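Read-through rows are the entries of a gene expression table whose symbol joins the names of a pair of neighbouring genes with 1 hyphen, such as ERCC6-PGBD3. Members were chosen by name and by measured value, as rows of this form whose parts are both also rows of the table, with a value of at least 10 in 3 or more of the 10 libraries. The table holds 26040 rows. Of these, 104 have the required form and 50 reach the threshold, while 54 do not, 4 of which are at 0 in all libraries. C8orf44-SGK3 lies just inside the threshold with a third-highest value of 10.3, and FPGT-TNNI3K lies just outside it with 8.74. The threshold read the values of all 10 libraries without regard to group. No single gene belongs to more than 1 of the 50 loci.

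A read-through transcript arises when RNA polymerase II passes the polyadenylation site of one gene and goes on into the next gene on the same strand, and splicing then joins exons of both. Some of these transcripts code for a fusion protein, and others carry an early stop codon and are targets of nonsense-mediated decay. Because such a transcript shares most of its exons with the genes on either side, short reads from a shared exon can be assigned to any of the rows of the locus.

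The libraries came from U2OS, a human osteosarcoma cell line with wild-type p53, carrying lentiviral shRNAs and selected in 1 ug/ml puromycin. Nutlin-3a, an inhibitor of the MDM2 and p53 interaction that stabilises p53, was given at 10 uM for 24 h. There are 3 libraries of shARVCF lines with nutlin-3a, 3 of the same shARVCF lines untreated, 3 of the control shRNA line with nutlin-3a and 1 of the control shRNA line untreated. ARVCF encodes a catenin of the p120 family, and the shARVCF libraries 1, 2 and 3 carry 3 different shRNAs against it. According to the labels the treated cells were single clones, so each shRNA stands for 1 clone and the negative control for 1 line. All lines carry an integrated shRNA vector and were kept under the same selection. The labels name no separate cultures, so the p-values cover only library-to-library spread, part of which may be technical. In bulk RNA, fewer cells with a transcript and less of it per cell cannot be told apart. Replicates 2 and 3 of the control with nutlin-3a have later library numbers than the other 8 libraries.

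ARVCF itself had values of 1284, 1188 and 1232 in shARVCF lines with nutlin-3a, against 2928, 2571 and 2376 in the control line with nutlin-3a. Untreated, ARVCF had 292, 343 and 338 in shARVCF lines, against 618 in the control line. The ARVCF levels therefore followed the shRNA labels within each treatment. Untreated, the control line has 1 library, and ARVCF was not called there by the limma test used below. The U2OS markers RUNX2, VIM, SPARC, COL1A1, COL5A1, FN1 and ALPL were all above the threshold, while SP7 and BGLAP were at or near 0. None of the 5 blood markers reached the threshold, and the 3 endothelial markers summed to 46.6 to 107 per library. The 5 epithelial markers, led by KRT8 and KRT18, summed to 26472 to 27503 in the control line with nutlin-3a and to 8868 to 14094 in the other libraries. The other markers did not follow that sum. In the control line EPCAM had 61.2, 50.2 and 73.8 with nutlin-3a and 143 untreated. KRT5 had 1.23, 0 and 0.628 there, against 26.3, and CDH1 had 2.31, 32.6 and 2.99, against 14.5. The part of these markers in the results below was not tested. Library sizes before the authors' scaling, estimated from the smallest step between values, were 15335595 and 15073345 fragments in nutlin-3a control replicates 2 and 3 and 18428612 to 21097223 in the other 8 libraries.

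The sequences that define a read-through transcript are its bridging junctions, where the last exon used from the upstream gene meets the first exon used from the downstream gene. In GENCODE release 29, on GRCh38, which is the hg38 build of the submitters' processing notes, 46 loci had all 3 rows annotated and 40 of them had a transcript with such a junction. The junctions of 13 loci that recur in the results are given here from those transcripts because the meeting of these exon ends marks the joined transcript, although each side is also found in an exon of its own gene. They give 15 bases of the upstream gene's exon in lower case and 15 bases of the downstream gene's exon in capitals. Only fragments that cross a junction like these, or that lie in bases found in neither single gene, can be told apart from the single genes.

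ARPC4-TTLL3: aggaagcctgtggagCAGAAGAAGATCTTT
BCL2L2-PABPN1: agcagtgggggctggGAGCTGGAAGCTATC
C7orf55-LUC7L2: aatttcatggcaaggGAGATACAACTCGTC
CHURC1-FNTB: atggatgaatttcagGCAAAAGTAGAAGAA
COMMD3-BMI1: atggaacaattacagGATTTTTTATCAAGC
HNRNPUL2-BSCL2: caatacaatcgggatGGACCCTCCATTTTC
ISY1-RAB43: cagaaggctcctgggCTGCAGATCTGGGAC
JMJD7-PLA2G4B: gaggccatggagaagGCAGAGGTGTCCAGG
MINOS1-NBL1: tgcacagcaacttctGGCTCTGGAGGCCAC
NDUFC2-KCTD14: attttcctgaagaagATGTCTACTGTTGTG
NME1-NME2: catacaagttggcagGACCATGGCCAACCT
RBM14-RBM4: gtgacgtggtgaaagGCAAACGAATGCACG
TMED7-TICAM2: aagagtggcctattgGCACAGTGTGGATAC

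The intron spanned by these junctions differs widely. For CHURC1-FNTB it covers 78168 bases of chromosome 14, from the donor base at 64926080 to the acceptor base at 65004249. For JMJD7-PLA2G4B it covers 3606 bases of chromosome 15, from 41836551 to 41840158. For NDUFC2-KCTD14, on the minus strand of chromosome 11, it covers 55727 bases, from 78072998 to 78017270.

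Most of the annotated loci lie close together and have little sequence of their own. Of the 46 loci with all rows annotated, 45 have the first-named gene on the 5' side, POC1B-GALNT4 being the exception, and in 7 the single genes overlap. The median gap between the single genes is 5613 bases, and the longest is 573553 bases, at IQCJ-SCHIP1. A median of 3.32% of the exonic bases of a read-through gene lie outside both single genes. In 29 loci the figure is under 10%, and in 13, among them CHURC1-FNTB, COMMD3-BMI1, NDUFC2-KCTD14 and NME1-NME2, the read-through gene has 0 bases of its own. ARMCX5-GPRASP2 has the highest figure, 65.0%. Of 34 loci with RefSeq promoters for both the read-through and the upstream gene, 24 start within 100 bases of each other. Nonsense-mediated decay transcripts are annotated for 24 loci.

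Read-through rows were low in most loci and a small part of their locus. Values are estimated fragments per row after the authors' scaling, not corrected for length, so shares are shares of fragments and not of molecules. The mean value over the 10 libraries had a median of 72.3 over the 50 rows and ran from 5.47 for C8orf44-SGK3 to 1672 for BCL2L2-PABPN1. As a share of the locus total, the sum of the read-through row and both single-gene rows, the read-through row averaged a median of 7.93%. It was above 50% in 3 loci, TVP23C-CDRT4, IQCJ-SCHIP1 and ISY1-RAB43, and under 5% in 19. The highest mean share, 71.4%, was that of TVP23C-CDRT4, a fusion of a Golgi vesicle protein gene with CDRT4. SENP3-EIF4A1, which joins a SUMO protease gene to the gene of a translation initiation helicase, had the lowest, 0.0864%.

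Libraries of 1 group spread much more in read-through rows than in the rows beside them. The SD between libraries of a group, on the log2(value + 1) scale, had a median of 0.81 over the 50 read-through rows. Medians were 0.18 over 49 upstream gene rows and 0.23 over 45 downstream gene rows that passed the filter on low values, and 0.23 over 7588 other rows of like mean level. For the locus totals the median SD was 0.14, and in 48 of 50 loci the read-through row had a larger SD than its total. The total contains the read-through row, mostly as a small part, and other sums were not compared in this way, so that count is a description. Variances within a locus were compared on unlogged values, where the row with the largest variance weighs most. The variance of the total, set against the sum of the variances of its 3 rows, had a median ratio of 0.97 and was under 1 in 27 loci. Over 14509 pairs of neighbouring genes on the same strand the median ratio was 1.01, and 45.6% were under 1.

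**Figure D1:**
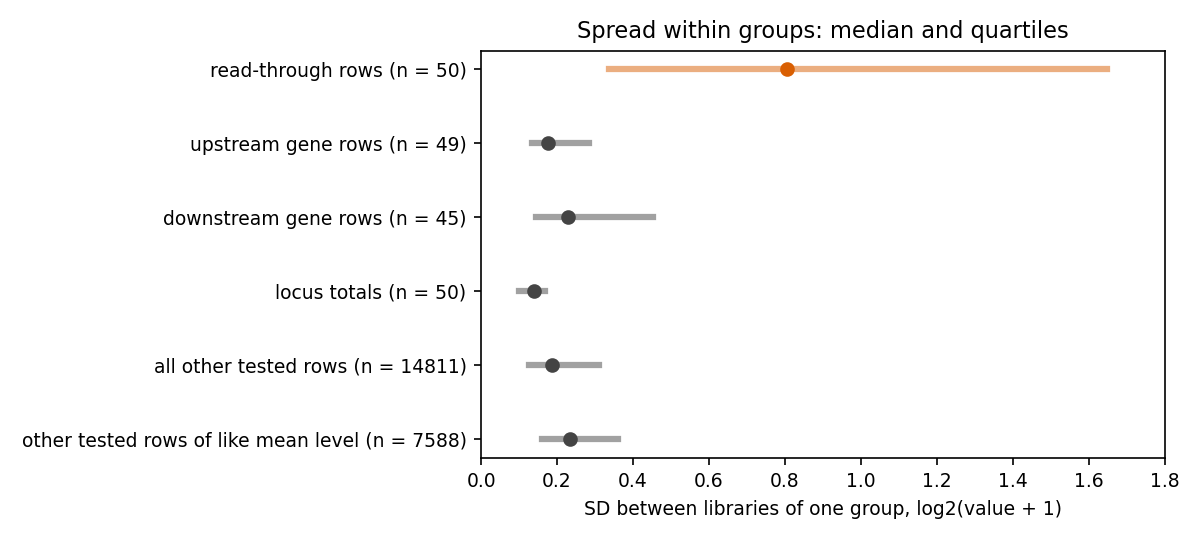
Spread between libraries of 1 group for 6 kinds of row, as the SD of log2(value + 1), with the median as a point and the quartiles as a bar. The median of read-through rows, 0.81, lies to the right of the upper quartile of every other kind drawn.

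In several loci the libraries of 1 group differed widely. COMMD3-BMI1, which joins a COMM domain gene to the polycomb gene BMI1, had read-through values of under 1 in nutlin-3a control replicates 1 and 2 and 351 in replicate 3. TVP23C-CDRT4 had 279, 274 and 51.5 in those 3 libraries, while CDRT4 was under 1 in replicates 1 and 2 and had 263 in replicate 3. At TMX2-CTNND1, whose downstream gene encodes p120 catenin, read-through values were under 1 in nutlin-3a control replicate 1, 122 in replicate 2 and 199 in replicate 3. These libraries carry 1 label, so the differences are between replicates of a condition.

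The values themselves also differed in form. In each library the lowest values step by what 1 fragment is worth, and a value that is a whole multiple of that step, within 0.01, corresponds to whole fragments. Among values under 200, 6.06% to 27.8% of read-through values per library were whole multiples, and 10.5% to 31.4% of the single-gene values of the same loci. Other tested rows had 55.9% to 67.6%. Between 3 and 11 of the 50 read-through rows per library had values under 1, which is 6% to 22% of them, against 0.461% to 1.30% of all tested rows. No member was listed at exactly 0 anywhere, so values under 1 are estimates near 0, and log2 differences that rest on them depend on the pseudocount.

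**Figure D2:**
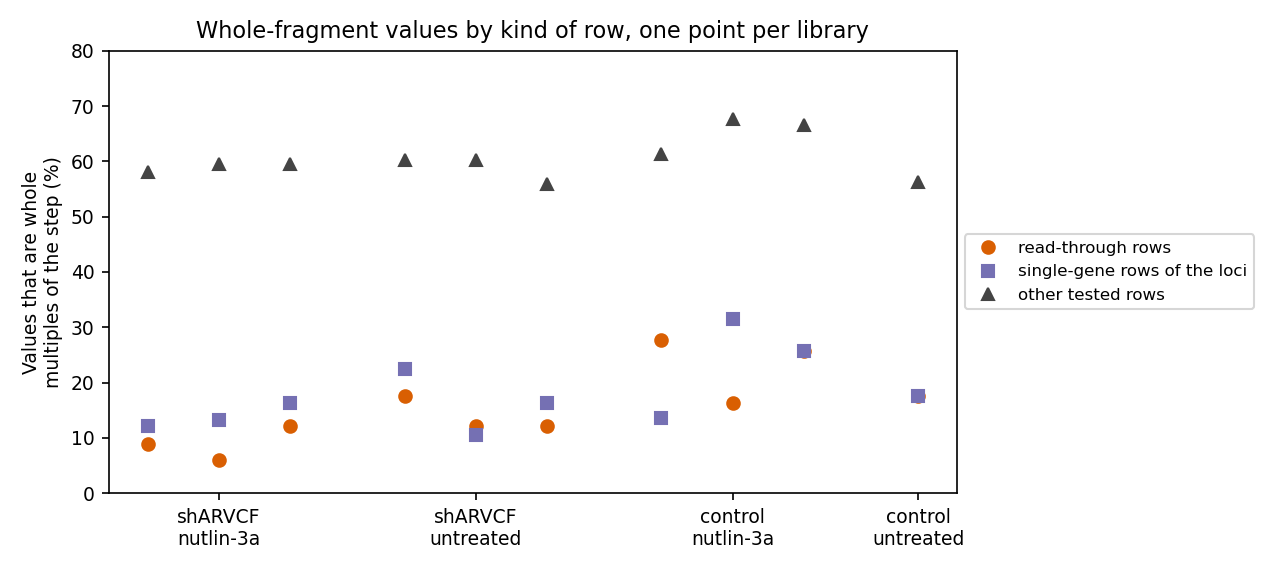
Percentage of values under 200 that are whole multiples of the library's step, 1 point per library, for read-through rows, single-gene rows of the same loci and all other tested rows. Read-through and single-gene rows lie between 6.06% and 31.4%, below the other rows at 55.9% to 67.6%, in all 10 libraries.

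Few read-through rows were called with nutlin-3a in the shARVCF lines. With limma, 8 of 50 read-through rows were called against the untreated shARVCF lines, 4 higher and 4 lower, at an adjusted p under 0.05 over 14955 tested rows. The share of all tested rows called in this comparison was 42.8%, with 21.0% higher and 21.7% lower, so the count of members is below that background. The median absolute log2 change was 0.54 over read-through rows, against 0.37 over all tested rows. The spread of read-through rows within groups was also larger, as given above, so the lower count of calls does not mean smaller changes. As locus totals, 25 of the same 50 loci were called, 14 higher and 11 lower, against 43.0% of rows in the table with totals. Both the read-through row and the total were called in 6 loci, with the same direction in all 6. Values of the read-through row did not overlap between treatments in 5 loci that were higher and 9 that were lower, against 54.9% of all tested rows.

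NDUFC2-KCTD14 fell in shARVCF lines with nutlin-3a. NDUFC2 encodes a subunit of respiratory complex I and KCTD14 a potassium channel tetramerisation domain protein. The read-through row had 596, 741 and 772 in shARVCF 1, 2 and 3 with nutlin-3a, against 1272, 1527 and 1523 in the same lines untreated. NDUFC2 had 1237, 1375 and 1560 with nutlin-3a, against 1074, 1037 and 1121 untreated. For both rows the groups did not overlap, and they moved in opposite directions. The read-through row fell by 1.04 on the log2 scale (SE 0.13, adjusted p = 3.09e-05) and NDUFC2 rose by 0.36 (SE 0.13, adjusted p = 0.0392). KCTD14 fell by 1.77 and the locus total by 0.37. The read-through share of the locus was 31.6%, 33.5% and 31.7% with nutlin-3a and 47.8%, 53.7% and 52.5% untreated.

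NME1-NME2 joins the genes of a pair of nucleoside diphosphate kinases. Its read-through row had 86.7, 77.1 and 159 in shARVCF 1, 2 and 3 with nutlin-3a, against 34.7, 28.3 and 73.8 untreated, a log2 change of 1.27 (SE 0.36, adjusted p = 0.0132). The groups did not overlap, and NME1 rose by 1.03. The read-through row held 0.643% to 1.15% of the locus with nutlin-3a and 0.298% to 0.680% untreated. Without untreated shARVCF 2 the adjusted p was 0.0528. MINOS1-NBL1 joins a gene of the mitochondrial inner membrane organising complex to NBL1, a BMP antagonist gene. It had 62.2, 64.3 and 11.8 with nutlin-3a and under 1 in all 3 untreated shARVCF libraries (adjusted p = 2.13e-05), while the untreated control library had 44.8.

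RBM14-RBM4, a fusion of genes for a pair of RNA-binding proteins, had 144, 55.8 and 131 with nutlin-3a in shARVCF lines and 208, 200.3 and 234 untreated. The groups did not overlap, and the log2 change was -1.06 (SE 0.29, adjusted p = 0.0120). APITD1-CORT, which joins the gene of a kinetochore and DNA repair protein to the cortistatin gene, had 18.8, 21.0 and 28.3 with nutlin-3a and 105, 102 and 91.9 untreated, a log2 change of -2.11 (SE 0.61, adjusted p = 0.0188). The single gene APITD1 fell by 1.02 as well. The call on APITD1-CORT was lost with line as a block (adjusted p = 0.0579), and without shARVCF 1 or 2 of either treatment, with adjusted p of 0.0507 to 0.0635. C8orf44-SGK3, whose downstream gene encodes a serum and glucocorticoid regulated kinase, had values under 1 in the 3 nutlin-3a libraries and 15.8, 10.3 and 8.22 untreated. It passes the threshold only through untreated libraries, so a difference between the treatments follows from how it was chosen.

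The other calls in the shARVCF lines were close to the threshold. ARPC4-TTLL3, from an Arp2/3 complex subunit gene and a tubulin glycylase gene, had 471, 365 and 309 with nutlin-3a and 263, 244 and 337 untreated, and the groups overlapped. Its log2 change of 0.43 had an adjusted p of 0.0476, which reached 0.194 without nutlin-3a shARVCF 1. The call was also lost without nutlin-3a shARVCF 2 (0.0817), untreated shARVCF 1 (0.126) or 2 (0.164), and any 1 of the nutlin-3a control libraries (0.0615 to 0.0660), and with the length and GC trends removed (0.0738). IQCJ-SCHIP1, whose downstream gene encodes a schwannomin-interacting protein, had 630.2, 584 and 492 with nutlin-3a and 287, 438 and 409 untreated, without overlap. Its log2 change of 0.60 had an adjusted p of 0.0463, and of 0.0704 with line as a block. Without nutlin-3a shARVCF 1 (0.131) or 2 (0.111), untreated shARVCF 1 (0.163) or 3 (0.0624), or nutlin-3a control replicate 2 (0.0536), IQCJ-SCHIP1 was not called. The number of read-through rows called was 5 without nutlin-3a shARVCF 2, untreated shARVCF 1 or untreated shARVCF 2.

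COMMD3-BMI1 had the largest rise in share among loci with a total of at least 100 in every library, but it was not called. Its read-through row had 604, 544 and 266 in shARVCF lines with nutlin-3a and 123, under 1 and 54.4 untreated, and the groups did not overlap. BMI1, the downstream gene, had 2284, 2551 and 2242 with nutlin-3a, against 3693, 3794 and 3153 untreated, and fell by 0.59. With 1 of the untreated values near 0, the SE of the read-through change was 2.68 on the log2 scale. PALM2-AKAP2, in which AKAP2 encodes an anchoring protein of protein kinase A, had 644, 702 and 711 with nutlin-3a and 931, 1113 and 1124 untreated, again without overlap and again not called. AKAP2 had 4659, 5515 and 7017 with nutlin-3a, against 2332, 2689 and 3218 untreated, and rose by 1.05. MEF2BNB-MEF2B, with a lysosome positioning gene upstream, was among the 5 largest falls in share, but its read-through row had 50.5, 65.9 and 14.2 with nutlin-3a and 28.5, 50.8 and 90.3 untreated, with overlap.

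**Figure D3:**
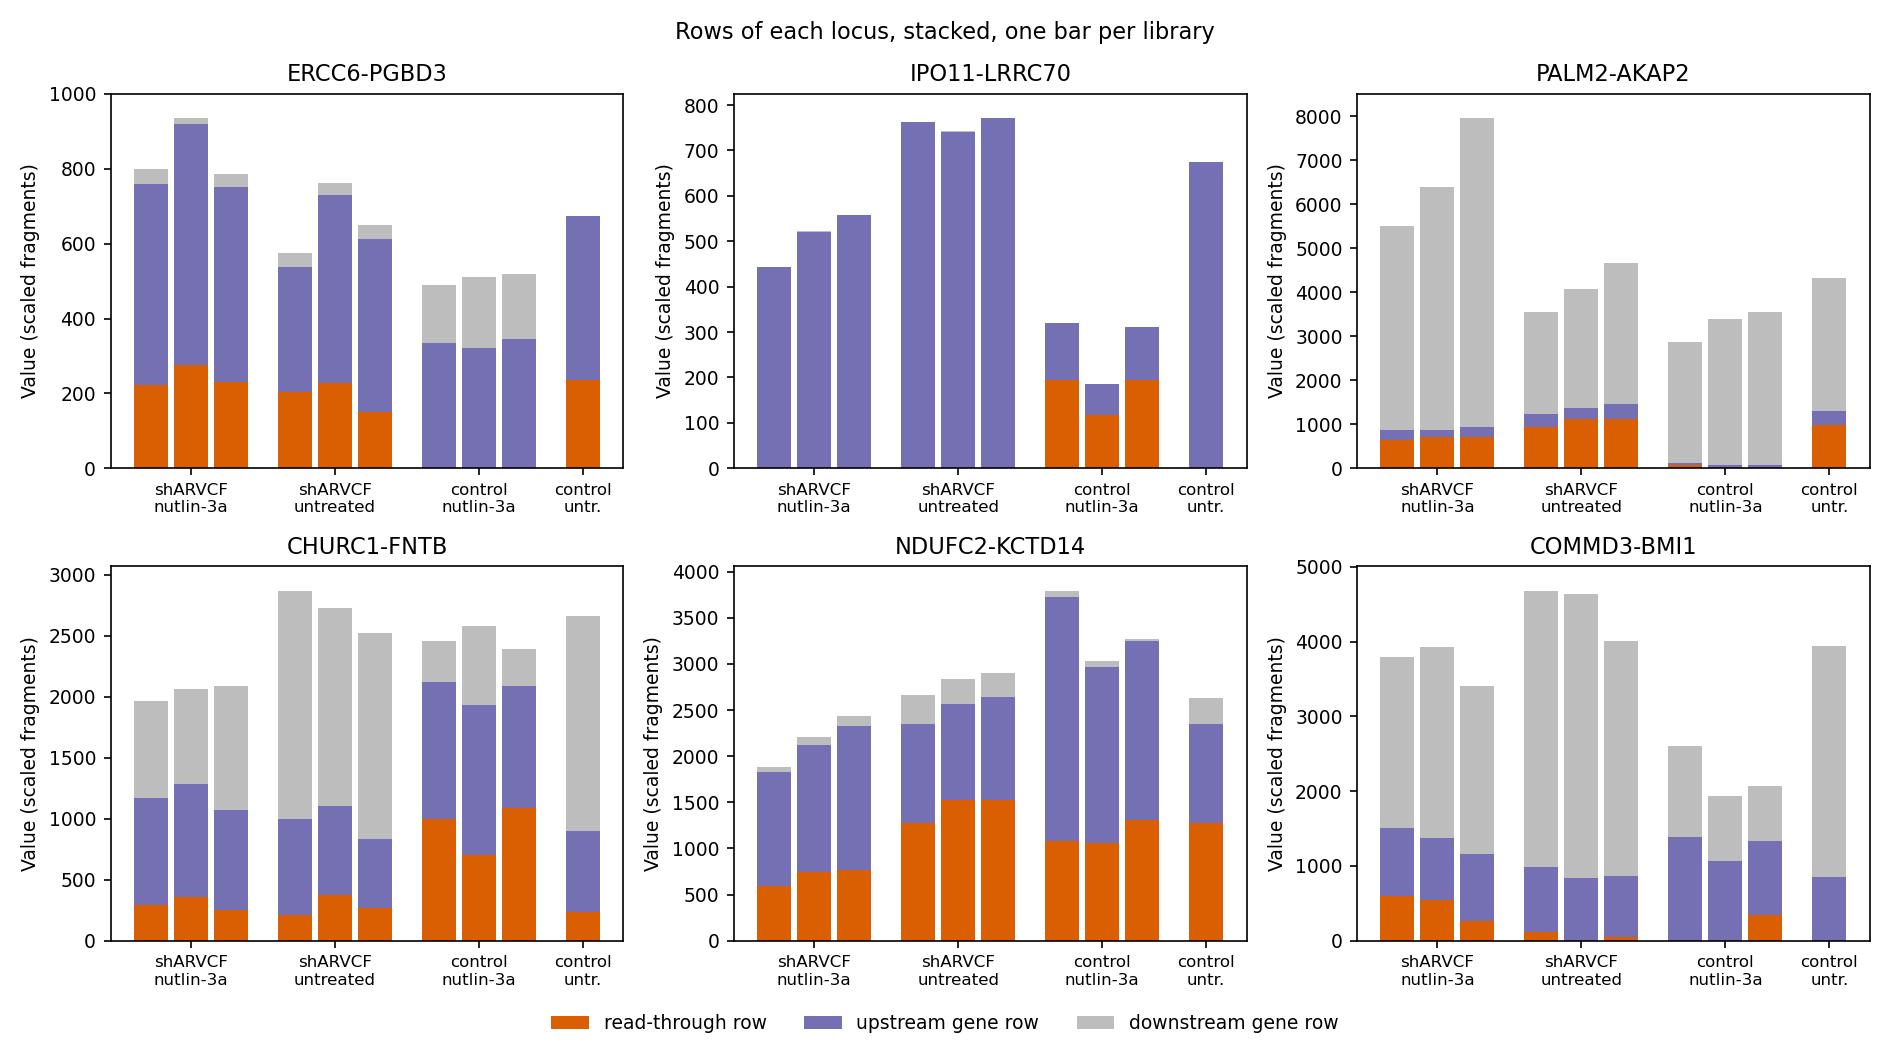
Values of the read-through row, upstream gene row and downstream gene row, stacked, in each of 10 libraries for 6 loci, with groups ordered as shARVCF with nutlin-3a, shARVCF untreated, control with nutlin-3a and control untreated. ERCC6-PGBD3 lacks a visible read-through part only in the 3 nutlin-3a control libraries, and IPO11-LRRC70 has one only there.

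In the control line, 16 of 50 read-through rows were called with nutlin-3a against the single untreated control library, 7 higher and 9 lower. Of all tested rows 57.1% were called, 25.1% higher and 32.0% lower, and the count of members is again below that background. As locus totals 33 were called, 20 higher and 13 lower, against 57.3% of rows. The median absolute log2 change was 1.36 over read-through rows, against 0.75 over all tested rows. Read-through row and total were called with the same sign in 8 loci and with opposite signs in 4, C7orf55-LUC7L2, IPO11-LRRC70, JMJD7-PLA2G4B and MSANTD3-TMEFF1. Values of 14 read-through rows lay above and 20 below the untreated library without overlap, against 86.0% of all tested rows. The change of a row in this comparison followed transcript length across the table, with a Spearman correlation of -0.43 over 14694 genes as a description, against -0.03 in the shARVCF lines. After removal of the length and GC trends, 10 of the 47 members with an annotated length were called, against 48.6% of rows, 20.4% higher and 28.1% lower, and 8 of the 13 calls that could be refitted were kept. The part of length in these calls was not otherwise tested.

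ERCC6-PGBD3 had the lowest change. ERCC6 encodes the Cockayne syndrome B protein of transcription-coupled repair, and PGBD3 is a domesticated piggyBac transposase gene inside it. This row was named when the loci were chosen, so its values are a description. ERCC6-PGBD3 had values under 1 in the 3 nutlin-3a control libraries, against 236 in the untreated control library. PGBD3 had 155, 189 and 172 in the nutlin-3a control libraries, against under 1 in the untreated control library. The shARVCF lines had ERCC6-PGBD3 at 223, 277 and 231 with nutlin-3a and 203, 228 and 151 untreated, and PGBD3 at 15.4 to 42.4 and 30.2 to 39.1. Of these rows, PGBD3 was thus the higher one in the 3 nutlin-3a control libraries and ERCC6-PGBD3 in the other 7. ERCC6 itself had 335, 321 and 346 in the control line with nutlin-3a and 439 untreated and was not called. The locus total had 490.2, 510.0 and 518 with nutlin-3a and 675 untreated, a log2 change of -0.41 (adjusted p = 0.0490).

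IPO11-LRRC70 ran the other way. IPO11 encodes importin 11, a nuclear import receptor. RefSeq (GRCh38.p14) lists the locus as a long noncoding RNA gene on chromosome 5 from 62578735 to 62628589. The read-through row had 194, 118 and 194 in the nutlin-3a control libraries and under 1 in the other 7 libraries. The 3 values that pass the threshold all come from 1 group, so the group had to differ. IPO11 had 125, 68.5 and 118 with nutlin-3a in the control line and 675 untreated, a log2 change of -2.74, and the locus total fell by 1.35. In the shARVCF lines IPO11 had 443, 521 and 557 with nutlin-3a and 762, 740.2 and 771 untreated.

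PALM2-AKAP2 had 63.4, under 1 and 6.96 in the control line with nutlin-3a, against 987 untreated. AKAP2 had 2770.1, 3336 and 3480.2 with nutlin-3a and 3028 untreated, and was not called. The call on the PALM2-AKAP2 read-through row (adjusted p = 0.0209) was lost with line as a block (adjusted p = 0.0643). JMJD7-PLA2G4B, from a lysyl hydroxylase gene and a phospholipase A2 gene, had under 1, under 1 and 4.23 with nutlin-3a and 133 untreated (adjusted p = 4.70e-04). Its single gene PLA2G4B had 186, 232 and 194 with nutlin-3a and under 1 untreated, and the total rose by 1.00. TMED7-TICAM2, from a p24 cargo receptor gene and the gene of a Toll-like receptor adaptor, had 181, 199.8 and 149 with nutlin-3a and 433 untreated, a log2 change of -1.30 (SE 0.22, adjusted p = 3.15e-04). TMED7 fell by 0.69 alongside it.

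CHURC1-FNTB had 997, 707 and 1092 in the control line with nutlin-3a, against 238 untreated, a log2 change of 1.94 (SE 0.31, adjusted p = 2.64e-04). FNTB, the beta subunit gene of farnesyltransferase, had 339.5, 650.0 and 301 with nutlin-3a and 1760.3 untreated, and fell by 2.12. The total had 2460.3, 2578 and 2392 with nutlin-3a and 2658 untreated, and was not called. Nutlin-3a control replicate 2 had the lowest read-through value and the highest FNTB value of its group. ARPC4-TTLL3 had 942, 877 and 872 with nutlin-3a and 290.2 untreated, a log2 change of 1.62 (SE 0.23, adjusted p = 6.81e-05), while ARPC4 rose by 1.16 and the total by 1.23. NME1-NME2 had 218, 155 and 197 with nutlin-3a and 69.8 untreated, a change of 1.42 whose adjusted p was 0.0307, and 0.0761 without nutlin-3a control replicate 1 and 0.0643 without replicate 3. After removal of the length and GC trends NME1-NME2 was not called (adjusted p = 0.284).

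BCL2L2-PABPN1, which joins an anti-apoptotic BCL2 family gene to the nuclear poly(A)-binding protein gene, had 2397, 2369 and 2224 in the control line with nutlin-3a and 1301 untreated. Its log2 change was 0.84 (SE 0.13, adjusted p = 1.40e-04), and -0.078 (adjusted p = 0.644) once the length and GC trends were removed. C7orf55-LUC7L2, with a splicing factor gene downstream, had 637, 679.8 and 498 with nutlin-3a and 341 untreated, a log2 change of 0.81 (SE 0.23, adjusted p = 0.00935). LUC7L2 fell by 1.38 and the total by 0.52. Its read-through call was lost with the trends removed (adjusted p = 0.142). ANKHD1-EIF4EBP3, with a gene for a translation repressor downstream, had 455, 751 and 475 with nutlin-3a and 860.5 untreated, a log2 change of -0.66 (adjusted p = 0.0279). That change was 0.015 (adjusted p = 0.964) with the trends removed, and the adjusted p was 0.0701 without nutlin-3a control replicate 1 and 0.0725 without replicate 3.

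The remaining calls were in small rows. PRR5-ARHGAP8, with a gene of the mTORC2 complex upstream, had 60.9, 68.2 and 28.5 with nutlin-3a and under 1 untreated (adjusted p = 0.0309). It was not called without nutlin-3a control replicate 1 (0.0555) or 2 (0.0586), without nutlin-3a shARVCF 2 (0.0515), or with the trends removed (0.0602). SEPT5-GP1BB, from a septin gene and a platelet glycoprotein gene, had 47.6, 40.2 and 63.1 with nutlin-3a and 176 untreated, a log2 change of -1.81 (adjusted p = 0.00694). MSANTD3-TMEFF1 had 139, 74.8 and 95.4 with nutlin-3a and 235 untreated, a change of -1.23 (adjusted p = 0.0169), while MSANTD3 rose by 1.14 and the total by 0.88. TMEM56-RWDD3, with the gene of a SUMO conjugation enhancer downstream, had 19.5, 9.94 and 7.33 with nutlin-3a and 38.7 untreated, a change of -1.69 (adjusted p = 0.0132). C8orf44-SGK3 had under 1 in all 3 nutlin-3a libraries and 20.2 untreated.

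**Figure D4:**
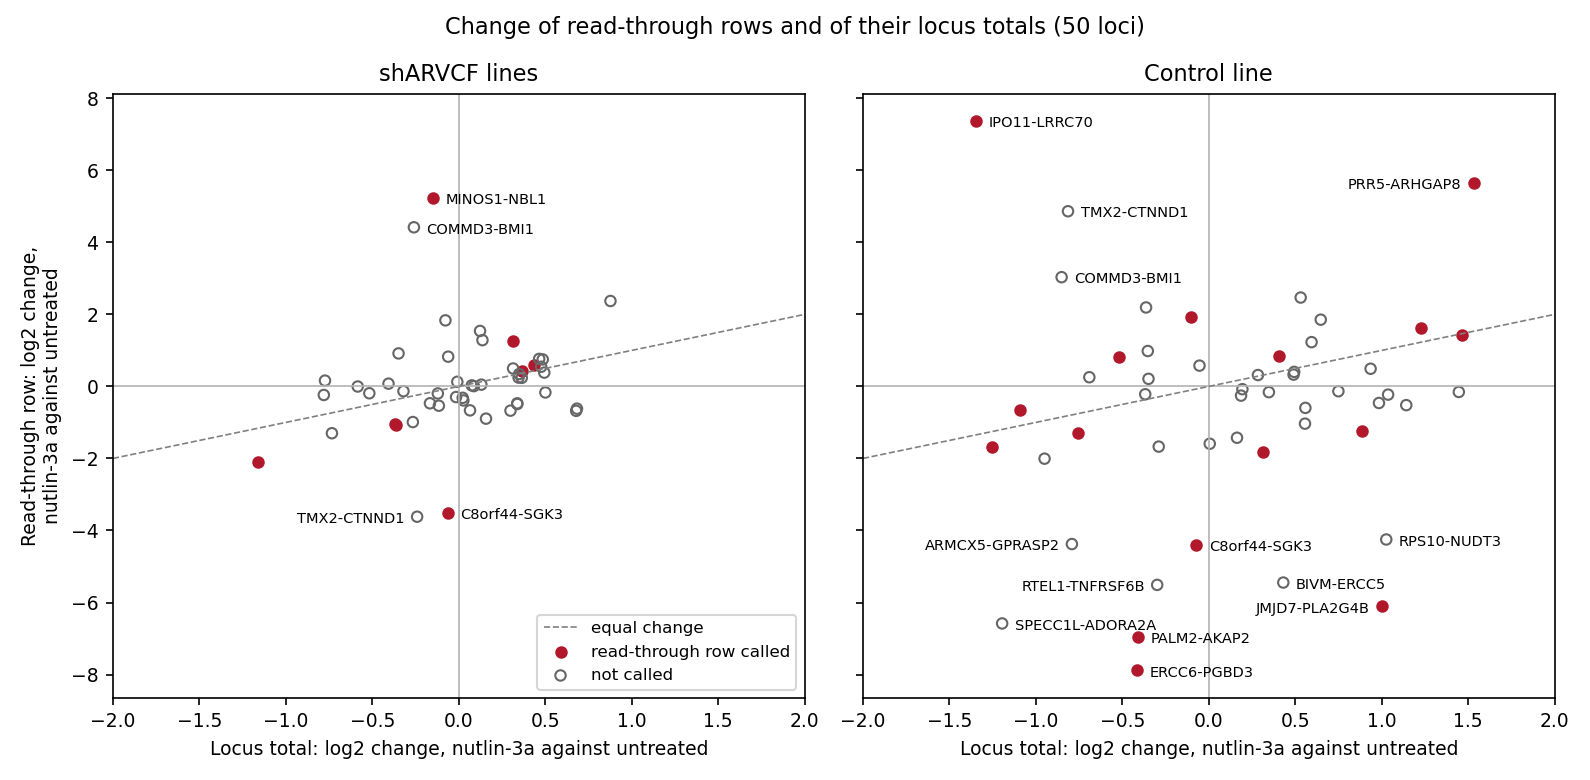
Log2 change of each read-through row, nutlin-3a against untreated, on the vertical axis, against the log2 change of its locus total, for 50 loci in the shARVCF lines (left) and the control line (right). Filled points are called read-through rows, and changes beyond 3 in either direction are named. Locus totals stay within 2 on either side of 0, while read-through rows reach -7.88 and 7.37 in the control line.

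The ratio of a read-through row to the sum of its single genes was tested on both treatments at once, with treatment labels exchanged within the shARVCF and within the control libraries. The exact permutation test, two-sided, has 80 arrangements and a smallest p of 0.0125. Its p-values were not adjusted over the loci, unlike those of limma. Of 50 loci, 12 had p under 0.05, 4 with a higher ratio and 8 with a lower ratio under nutlin-3a, and 7 of these were at the smallest p. For the ratio of upstream to downstream gene in the same loci it was 18 of 50, and for 14509 pairs of neighbouring genes on the same strand 51.1%. The 24% of read-through loci is under that background. The median absolute log2 change of the ratio was 0.95 over read-through loci, against 0.75 over the neighbouring pairs. Without untreated shARVCF 1, 7 loci had p under 0.05, but the test then has only 40 arrangements and is coarser. The shARVCF libraries are paired by line, and with their labels exchanged only within a line the test has 32 arrangements and a smallest p of 0.0312. The same 12 loci were then at p under 0.05, against 48.0% of the neighbouring pairs. IPO11-LRRC70 passes the threshold only through nutlin-3a control libraries and C8orf44-SGK3 only through untreated ones, so their ratio differences follow from how they were chosen. Of the 44 loci that meet the threshold whichever single group is left out, 10 had p under 0.05, 3 higher and 7 lower. The test within lines and the test of these 44 loci were added after the data were seen.

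The 4 loci with higher ratios under nutlin-3a were CHURC1-FNTB, HNRNPUL2-BSCL2, IPO11-LRRC70 and ISY1-RAB43. HNRNPUL2-BSCL2, from an hnRNP-like gene and the seipin gene, had shares of 24.7%, 26.2% and 29.7% in shARVCF lines with nutlin-3a, against 18.8%, 21.7% and 23.8% untreated. In the control line the shares were 33.3%, 32.3% and 33.8% with nutlin-3a, against 22.5% untreated (exact p = 0.0125), so neither kind of line had overlap. ISY1-RAB43, from a spliceosome gene and the gene of a Golgi GTPase, had 63.5%, 69.1% and 68.5% with nutlin-3a and 58.1%, 60.9% and 63.8% untreated in shARVCF lines, with overlap. In the control line it had 58.4%, 59.1% and 59.2% with nutlin-3a and 57.6% untreated (exact p = 0.0250).

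The 8 loci with lower ratios were C8orf44-SGK3, MSANTD3-TMEFF1, NDUFC2-KCTD14, P2RX5-TAX1BP3, PALM2-AKAP2, RTEL1-TNFRSF6B, SEPT5-GP1BB and TMED7-TICAM2. NDUFC2-KCTD14 had shares of 28.5%, 35.0% and 40.0% in the control line with nutlin-3a, against 48.6% untreated (exact p = 0.0125), and its shARVCF shares are given above. PALM2-AKAP2 had 11.7%, 11.0% and 8.93% in shARVCF lines with nutlin-3a and 26.1%, 27.3% and 24.0% untreated, and 2.2% in replicate 1 and under 1% in replicates 2 and 3 of the control line with nutlin-3a, against 22.8% untreated (exact p = 0.0125). RTEL1-TNFRSF6B is from a telomere helicase gene and a decoy receptor gene. In shARVCF lines it had 20.5%, 32.4% and 28.0% with nutlin-3a and 29.5%, 43.5% and 47.9% untreated, with overlap. In the control line it had 13.2% in replicate 1 and under 1% in replicates 2 and 3 with nutlin-3a, against 35.8% untreated. Over both kinds of line its exact p was 0.0250. P2RX5-TAX1BP3 is from the gene of an ATP-gated channel and a PDZ protein gene. In shARVCF lines it had 2.56%, 1.75% and 1.64% with nutlin-3a and 10.0%, 4.24% and 3.02% untreated, without overlap. In the control line it had 1.39%, 1.60% and 1.96% with nutlin-3a, against 4.96% untreated. Over both kinds of line its exact p was 0.0125.

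**Figure D5:**
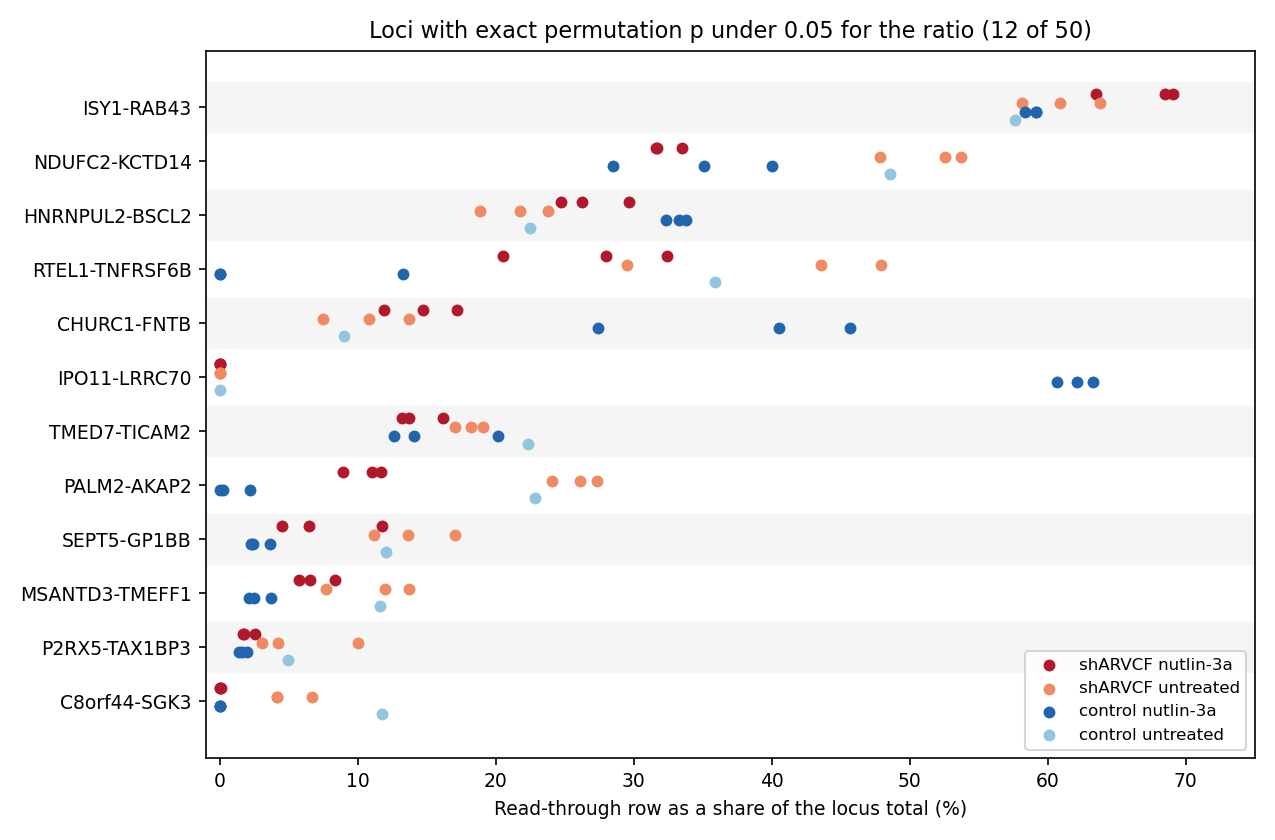
Share of the locus total in the read-through row, in percent, for the 12 loci with an exact permutation p under 0.05, 1 point per library and 1 colour per group. NDUFC2-KCTD14 and PALM2-AKAP2 lie lower with nutlin-3a in both kinds of line, and CHURC1-FNTB reaches 27.4% to 45.6% only in the nutlin-3a control libraries.

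Within single comparisons, shares did not overlap between nutlin-3a and untreated shARVCF lines in 14 of 50 loci, 4 higher and 10 lower, against 55.6% of neighbouring gene pairs. In the control line, set against its 1 untreated library, 14 loci were higher and 23 lower without overlap, against 83.9% of pairs. Between shARVCF and control lines under nutlin-3a 14 were higher and 11 lower, against 54.4%, and untreated 16 were higher and 10 lower, against 38.9%.

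Under nutlin-3a, 24 of 50 read-through rows were called between shARVCF lines and the control line, 13 higher and 11 lower in shARVCF. Of all tested rows 58.4% were called, 32.3% higher and 26.1% lower, so the count of members is below that background. Values did not overlap in 14 rows that were higher and 13 that were lower, against 64.1% of all tested rows. As locus totals 38 were called, 15 higher and 23 lower, against 58.6%. The median absolute log2 difference was 1.01 over read-through rows, against 0.56 over all tested rows. In 6 loci the read-through row and the total were called with opposite signs, IPO11-LRRC70, JMJD7-PLA2G4B, MSANTD3-TMEFF1, POC1B-GALNT4, RTEL1-TNFRSF6B and ZHX1-C8orf76. This comparison shares its nutlin-3a libraries with the treatment comparisons above. Across 14694 genes the change followed transcript length with a Spearman correlation of 0.58. With the length and GC trends removed 15 of 47 members were called, against 37.9% of rows, and 15 of the 22 calls that could be refitted were kept.

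ERCC6-PGBD3 had 223, 277 and 231 in shARVCF lines, against under 1 in the control libraries, again as a description. PALM2-AKAP2 (adjusted p = 0.00667) and JMJD7-PLA2G4B (adjusted p = 8.56e-05), whose values are given above, were called. BIVM-ERCC5, whose downstream gene encodes the XPG repair endonuclease, had 337, 397 and 354 in shARVCF lines and under 1, 114 and under 1 in the control line. ERCC5 had 572, 761 and 674 in shARVCF lines and 789, 846 and 1013 in the control line, and was not called. The BIVM-ERCC5 call (adjusted p = 0.0243) was lost with line as a block (adjusted p = 0.0515) and without any 1 of nutlin-3a shARVCF 1 (0.0587), 2 (0.0677) or 3 (0.0623) or of control replicates 1 (0.0612) or 3 (0.0669). RTEL1-TNFRSF6B had 73.9, 91.6 and 64.4 in shARVCF lines and 49.4, under 1 and under 1 in the control line. Its adjusted p was 0.0381, and 0.0802 with line as a block. Leaving out any 1 of the nutlin-3a or untreated shARVCF libraries, or control replicate 2 or 3, ended that call, with adjusted p of 0.0599 to 0.105.

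Other rows were lower in shARVCF lines under nutlin-3a. CHURC1-FNTB had 289.7, 355 and 248 in shARVCF lines, against 997, 707 and 1092 in the control line, a log2 difference of -1.63 (SE 0.22, adjusted p = 6.53e-05). RBM14-RBM4 had 144, 55.8 and 131, against 363, 413 and 432, a difference of -1.97 (SE 0.29, adjusted p = 1.36e-04), and the log2 difference of the total was -0.34. ARPC4-TTLL3 had 471, 365 and 309, against 942, 877 and 872, a difference of -1.25 (SE 0.16, adjusted p = 3.08e-05). In these 3 loci the groups did not overlap. PPAN-P2RY11, from a ribosome biogenesis gene and a purinergic receptor gene, had 111, 108 and 115 in shARVCF lines and 208, 292 and 136 in the control line, a difference of -0.85 (adjusted p = 0.00645), or -0.15 (adjusted p = 0.614) with the trends removed.

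POC1B-GALNT4, from a centriole gene and a mucin-type glycosyltransferase gene, had 15.1, 116 and 70.2 in shARVCF lines under nutlin-3a and 156, 147 and 153 in the control line. Its adjusted p was 0.0478, and 0.0706 with line as a block. The POC1B-GALNT4 call was also lost without nutlin-3a shARVCF 3 (0.0601), any 1 untreated shARVCF library (0.0716 to 0.0736) or any 1 nutlin-3a control library (0.0911 to 0.0991). ZHX1-C8orf76, with a zinc finger and homeobox gene upstream, had 37.3, 43.5 and 37.2 in shARVCF lines and 114, 71.9 and 47.3 in the control line (adjusted p = 0.0225), or adjusted p = 0.130 with the trends removed. Without control replicate 1 (0.105) or 2 (0.0509), or shARVCF 1 (0.0555) or 3 (0.0520), it was not called.

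Several small rows were higher in shARVCF lines under nutlin-3a. TMEM56-RWDD3 had 26.2, 32.1 and 23.7 in shARVCF lines, against 19.5, 9.94 and 7.33 in the control line, without overlap (log2 difference 1.19, adjusted p = 0.0130). The TMEM56-RWDD3 call was lost without nutlin-3a shARVCF 2 (0.0514) or control replicate 3 (0.0505). SEPT5-GP1BB had 183, 104 and 62.1 in shARVCF lines, against 47.6, 40.2 and 63.1 in the control line, with overlap (log2 difference 1.08, adjusted p = 0.0165), and lost its call without nutlin-3a shARVCF 1 (0.0627) or control replicate 1 (0.0529) or 2 (0.0677). CCDC169-SOHLH2, whose downstream gene encodes a germ cell transcription factor, had 6.32, 16.9 and 29.04 in shARVCF lines, against under 1 in all 3 control libraries. It passes the threshold only through shARVCF libraries, so a difference from the control line follows from how it was chosen.

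Of the other calls under nutlin-3a, ANKHD1-EIF4EBP3, TMED7-TICAM2, MSANTD3-TMEFF1 and STX16-NPEPL1 were higher in shARVCF lines, with log2 differences of 0.59, 0.88, 0.98 and 1.34, and BCL2L2-PABPN1, NDUFC2-KCTD14, C7orf55-LUC7L2 and HNRNPUL2-BSCL2 were lower, with -0.72, -0.71, -0.59 and -0.56. HNRNPUL2-BSCL2 had 535, 586 and 588 in shARVCF lines and 757, 828 and 944 in the control line. With the trends removed the differences of ANKHD1-EIF4EBP3 (-0.13), BCL2L2-PABPN1 (0.12) and NDUFC2-KCTD14 (0.14) had the other sign and none was called, and C7orf55-LUC7L2 (-0.27, adjusted p = 0.230) was not called either.

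The change with nutlin-3a differed between shARVCF and control lines in 11 of 50 read-through rows, 4 with a higher change and 7 with a lower change in shARVCF lines, against 31.8% of all tested rows, and the count of members is below that background. As locus totals it was 23, 10 higher and 13 lower, against 32.0%. The median absolute difference of the log2 changes was 1.28 over read-through rows, against 0.55 over all tested rows. With the length and GC trends removed, 2 of the 47 members with an annotated length were called. Of all rows 12.3% were called in that fit, 7.84% higher and 4.45% lower. The 2 were JMJD7-PLA2G4B and MINOS1-NBL1, which kept their call, and 9 of the 11 could be refitted. ERCC6-PGBD3 and IPO11-LRRC70 have no annotated length. The Spearman correlation of this difference with transcript length was 0.58 across the table. MINOS1-NBL1 was the single locus in which row and total were called in opposite directions here. RBM14-RBM4 lost this call without untreated shARVCF 3 (0.0554) or nutlin-3a control replicate 2 (0.0558) or 3 (0.0582), and C7orf55-LUC7L2 without nutlin-3a control replicate 2 (0.0521).

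Untreated, none of the 50 read-through rows was called between shARVCF lines and the control line, against 0.0201% of tested rows, which is 3 rows of the table. None of the 50 totals was called, against 0.0135% of rows in the table with totals. Of the single genes, 1 of 45 downstream rows was called, PGBD3, at 37.1, 30.2 and 39.1 in shARVCF lines and under 1 in the control line (adjusted p = 0.00563). The count was 1 with a pseudocount of 0.1, which was MINOS1-NBL1, 1 without nutlin-3a shARVCF 3, again MINOS1-NBL1, and 1 without untreated shARVCF 3, which was PRR5-ARHGAP8.

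Factors of 3' end formation and termination, which release polymerase and its transcript at gene ends, were measured in the same libraries. Of 22 cleavage and polyadenylation factors, 3 rose and 14 fell with nutlin-3a in shARVCF lines, with a median log2 change of -0.33, and 3 rose and 11 fell in the control line, with a median of -0.35. Of all tested rows, 21.0% rose and 21.7% fell in shARVCF lines, and 25.1% rose and 32.0% fell in the control line. CSTF2T, a cleavage stimulation factor gene, fell by 0.85 in shARVCF lines, NUDT21, of cleavage factor I, fell by 0.84, CSTF1 fell by 0.63, and RBBP6 rose by 0.80. Of 21 tested termination factors, 2 rose and 5 fell in shARVCF lines (median -0.15) and 4 rose and 11 fell in the control line (median -0.69). With the length and GC trends removed the falls in the control line were 5 among cleavage and polyadenylation factors and 8 among termination factors, against 28.1% of rows. The median of all tested rows was -0.0017 in shARVCF lines and -0.096 in the control line.

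Under nutlin-3a, 12 of the 21 termination factors were higher and 4 lower in shARVCF lines than in the control line, against 32.3% and 26.1% of all tested rows. With the trends removed the counts were 6 and 3, against 23.7% and 14.2%. SCAF8, whose protein suppresses early polyadenylation, was higher by 1.27 on the log2 scale (adjusted p = 8.75e-08), CDK12, a kinase of the polymerase tail, by 1.31 (adjusted p = 2.15e-07) and RPRD2 by 1.10 (adjusted p = 2.29e-06). In the control line with nutlin-3a, WDR82 fell by 1.26, SCAF8 by 1.31 and CDK12 by 1.34. Among 22 cleavage and polyadenylation factors 7 were higher and 7 lower under nutlin-3a. With the trends removed 1 was higher and 7 were lower, against the same 23.7% and 14.2% of rows. PPP1CA was lower, with a log2 difference of -0.96, and -0.035 (adjusted p = 0.764) with the trends removed. Of 14 integrator subunits, 0 rose and 3 fell with nutlin-3a in shARVCF lines, and 1 rose and 5 fell in the control line. Of 17 nonsense-mediated decay factors, 3 rose and 6 fell in shARVCF lines, and 1 rose and 7 fell in the control line, for which the shares of all tested rows are those given above. Untreated, none of these lists had a member called between shARVCF and control lines, against 0.0201% of rows. The part of these factors in the read-through rows was not tested.

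Of the 50 members, 25 had a value of at least 10 in all 10 libraries and 20 had at least 1 library under 1. In 6, C1QTNF3-AMACR, C8orf44-SGK3, CCDC169-SOHLH2, IPO11-LRRC70, SENP3-EIF4A1 and TMX2-CTNND1, the threshold would not be met without some single group. Rows without a call included small and variable ones, but also ISY1-RAB43, with a mean value of 753. ARMCX5-GPRASP2, C1QTNF3-AMACR, CHKB-CPT1B, FAM47E-STBD1, INO80B-WBP1, LOC400927-CSNK1E, MEF2BNB-MEF2B, P2RX5-TAX1BP3, PMF1-BGLAP, PTGES3L-AARSD1, RNF103-CHMP3, RPL17-C18orf32, RPS10-NUDT3, SENP3-EIF4A1, SPECC1L-ADORA2A, TMEM110-MUSTN1, COMMD3-BMI1, ISY1-RAB43, TMX2-CTNND1 and TVP23C-CDRT4 were called in none of the 5 comparisons. INO80B-WBP1, from a chromatin remodelling gene and a WW domain-binding protein gene, had 259.6, 246 and 23.3 in the control line with nutlin-3a and 135 untreated, while WBP1 had 3745, 4063 and 3515, against 1804. RPS10-NUDT3, from a ribosomal protein gene, had 66.5, 65.5 and under 1 in the control line with nutlin-3a and 313 untreated, without overlap, but with an SE of 2.28 it was not called. SPECC1L-ADORA2A, with an adenosine receptor gene downstream, had under 1, under 1 and 5.82 with nutlin-3a and 181 untreated there, again not called. RPL17-C18orf32, from a ribosomal protein gene, ran from 11.8 to 83.6 in shARVCF lines with nutlin-3a and 21.6 to 146 untreated. STX16-NPEPL1, from a syntaxin gene, ran from 20.4 to 52.2 in shARVCF lines with nutlin-3a and 12.0 to 14.4 in the control line with nutlin-3a, without overlap (adjusted p = 0.00811 between them).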

How the data were processed

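Poly(A) RNA of 10 U2OS libraries was sequenced after stranded mRNA library preparation, per the labels' protocols. The submitters' processing notes name bcl2fastq 1.8.3, HISAT2 2.1.0, Cuffnorm 2.2.1 and the build hg38. No annotation release is given in the sources used here. As deposited by the authors, the signal of a row is its estimated fragments, scaled per library, and need not be whole. Fragments of shared exons may be divided between the rows of a locus.

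Members, gene lists and tests were chosen with earlier results of these data known. Rows with at least 10 in 3 or more libraries were tested with limma 3.58.1 (R 4.3.3, statmod 1.5.0; trend and robust variances) on log2(value + 1), as 4 group means over 10 libraries with 6 residual degrees of freedom. Two-sided p-values were adjusted by Benjamini-Hochberg across the 14955 tested rows and called at 0.05. Fold changes on this scale understate low rows. With 1 untreated control library, its spread was taken from the other groups. Locus totals were tested in a refitted table of 14861 rows. The ratio of a read-through row to its single genes was tested with an exact permutation test (Python 3.11.15, numpy 2.4.6, pandas 2.3.3, scipy 1.17.1, matplotlib 3.10.9 for figures). Scripts were tested on simulated data.

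Named were ERCC6-PGBD3, the 10 members of highest mean value, the 5 highest and 5 lowest called changes per comparison, the 5 largest rises and 5 largest falls in share in shARVCF lines at totals of at least 100, loci with row and total called in opposite directions, and up to 4 factors per comparison from the termination lists. Other members were named after their values were seen. Same-numbered shARVCF libraries are the same line, and their residuals correlated across genes (r 0.275, 0.288 and 0.327), so the numbers pair these libraries. Alternatives were other pseudocounts, filters and scalings, each library left out, the first library numbers alone, line as a block, removal, per library, of trends with GC content and spliced length (splines, 4 degrees of freedom), and locus totals. Added after the data were seen were the ratio test within line pairs and without members that need a single group. 1 of the 50 members is not described here.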

Additional observations from a re-analysis of the deposited data

Results flagged for a closer look

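In 11 read-through rows the log2 change with nutlin-3a differed between shARVCF and control lines by the test of the difference itself (limma, adjusted over all tested rows). Each value is the shARVCF change minus the control change, and 31.8% of all tested rows were called in the same way.

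The difference was -7.37 for IPO11-LRRC70, which passes the threshold only through the 3 nutlin-3a control libraries, so a difference follows from how it was chosen. It was 8.23 for ERCC6-PGBD3, which was named when the loci were chosen, so that value too is a description. The difference was -1.86 for CHURC1-FNTB (adjusted p = 0.00364), -1.64 for RBM14-RBM4 (adjusted p = 0.0283) and -1.19 for ARPC4-TTLL3 (adjusted p = 0.00656). It was -0.94 for C7orf55-LUC7L2 (adjusted p = 0.0232), -0.88 for NDUFC2-KCTD14 (adjusted p = 0.00919) and -0.81 for BCL2L2-PABPN1 (adjusted p = 0.00235). It was 0.98 for TMED7-TICAM2 (adjusted p = 0.0158), 5.82 for MINOS1-NBL1 (adjusted p = 0.00155) and 6.87 for JMJD7-PLA2G4B (adjusted p = 0.00235). The differences beyond 5 rest on groups with values under 1, so their size depends on the pseudocount. All rest on 1 untreated control library. With the length and GC trends removed, 7 of the 9 differences that could be refitted lost their call, and that of BCL2L2-PABPN1 was 0.0058. JMJD7-PLA2G4B and MINOS1-NBL1 kept theirs. RBM14-RBM4 lost its call without untreated shARVCF 3 or nutlin-3a control replicate 2 or 3 (adjusted p = 0.0554 to 0.0582), and C7orf55-LUC7L2 without nutlin-3a control replicate 2 (adjusted p = 0.0521).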

How the results depend on the processing

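Over 2976 refits of the 28 members named by rule, 2819 kept their side of the threshold, 52 gained a call and 99 lost one with its sign kept. In 6 a called change took the other sign. Signs of rows called in neither fit were not compared. All 6 changes of sign in called rows came with the length and GC trends removed. They were ANKHD1-EIF4EBP3 and BCL2L2-PABPN1 in the control line (0.015 and -0.078), ANKHD1-EIF4EBP3, BCL2L2-PABPN1 and NDUFC2-KCTD14 between shARVCF and control under nutlin-3a (-0.13, 0.12 and 0.14), and BCL2L2-PABPN1 in the difference of effects (0.0058). That correction left 10 calls in the control line (16 without it), 15 between lines under nutlin-3a (24) and 2 in the difference (11), with 47 of 50 members tested. The cause was not tested.

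Locus totals in place of read-through rows gave 25 calls in shARVCF lines, 33 in the control line, 38 between lines under nutlin-3a and 23 in the difference. A pseudocount of 0.1 gave 1 call between untreated lines. Leaving out 1 library gave 5 to 9 calls in shARVCF lines, 15 to 20 in the control line, 20 to 24 under nutlin-3a, 0 to 1 untreated, 11 to 16 in the difference and 7 to 11 loci in the ratio test. The ratio test has fewer arrangements with a library left out, so part of its lower counts may come from the coarser test. Without the untreated control library the comparisons that need it have no value. With line as a replicate block the counts were 7, 17, 21, 0 and 12 (12 in the ratio test), and besides the losses named in the report it added PRR5-ARHGAP8 in shARVCF lines, ISY1-RAB43 and SPECC1L-ADORA2A in the control line and SPECC1L-ADORA2A in the difference. The first library numbers alone gave 11, 18, 19, 0 and 15, and kept 16 of the 24 calls under nutlin-3a, but leave 1 treated control library. Equal library totals moved the median of all rows to -0.21 in the control line, 0.17 between lines under nutlin-3a and 0.16 in the difference. No called change of the 28 members named by rule took the other sign under any scaling tried. Values under 1 and the lack of whole fragments in these rows limit what depth can resolve.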
